A study of Mus musculus with 2 samples.

Results

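The elastic fibre genes described here are 10 genes for elastin, its microfibril scaffold and the proteins that assemble and cross-link it: Eln, Fbn1, Fbn2, Fbln1, Fbln2, Fbln5, Emilin1, Mfap4, Mfap5 and Lox. They were chosen by symbol, with earlier results of these data known, and all 10 were found among the 22740 genes of the deposited expression table. RNA was sequenced from the whole uterus of 2 mice of strain C57BL/6 on day 4 of pregnancy, with 1 library per animal, titled WT and carrying no treatment in the labels. Uterus 1 and uterus 2 stand for the libraries titled with those numbers. Both belong to 1 group, so the values describe levels in this tissue and how far 2 animals differed, and no test between conditions exists.

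Elastic fibres give a tissue recoil. Their core is cross-linked elastin, laid down on bundles of fibrillin microfibrils. Fibulins carry elastin to the microfibrils, lysyl oxidase joins elastin molecules through their lysines, and emilin and the microfibril-associated proteins lie at the surface or the interface of the fibre. In the uterus such fibres occur in the wall of arteries, in the myometrium and in the connective tissue, and the organ is known for breaking down and rebuilding its matrix around pregnancy.

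The 2 main building materials have very different coding sequences, and 1 coding exon of each is shown here because Eln and Fbn1, the core and the scaffold, lay far apart in level. The exons were read from GENCODE M1 transcripts (mouse build NCBIM37) and are written 5′ to 3′ on the coding strand. The elastin exon is exon 27 of Eln, at chr5:135186932-135187090 on the minus strand, 159 bases long, and is the Eln exon with the most copies of the motif GGNGTNCCNGG. Capitals mark the 5 copies. This motif can code for the glycine, valine, proline and glycine run typical of elastin. The fibrillin exon is exon 7 of Fbn1, at chr2:125238342-125238539 on the minus strand, 198 bases long, and has the most cysteine codons of the Fbn1 coding exons up to 200 bases. Capitals mark its 9 in-frame cysteine codons, TGC or TGT.
Eln exon 27: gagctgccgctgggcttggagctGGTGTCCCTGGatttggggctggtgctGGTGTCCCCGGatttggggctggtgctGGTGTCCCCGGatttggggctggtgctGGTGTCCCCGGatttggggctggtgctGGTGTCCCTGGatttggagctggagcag
Fbn1 exon 7: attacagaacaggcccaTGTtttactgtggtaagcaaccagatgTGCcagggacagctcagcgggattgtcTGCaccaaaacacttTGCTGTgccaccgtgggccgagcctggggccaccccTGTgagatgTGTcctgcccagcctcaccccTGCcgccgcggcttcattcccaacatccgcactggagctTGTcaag

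Searched on the coding strand only, the motif GGNGTNCCNGG occurred 15 times in the Eln coding sequence and in none of the other 9 members. Of 19502 genes with a coding sequence, 5.77% held it at least once, and the gene with the next most copies after Eln was Col4a1, a basement membrane collagen, with 14. Glycine codons made up 36.2% of the Eln coding sequence, against a median of 6.02% over all these genes. Cysteine codons made up 12.6% of Fbn1 and 12.5% of Fbn2, against a median of 2.12%, and 0.232% of Eln. The fibulins were rich in them too, at 10.2% in Fbln1, 8.91% in Fbln5 and 8.76% in Fbln2. Mfap5 had 4.85%, between the fibulins and the remaining members, Lox at 2.91%, Mfap4 at 2.33% and Emilin1 at 2.26%. Eln was the 1 member below the median of all genes.

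Expression was given as RPKM, reads scaled to transcript length and library size, so levels of different genes can be set side by side. The reads behind these values were recovered from their steps and summed to 3786975 in uterus 1 and 4208899 in uterus 2. As a check of the labelled tissue, smooth muscle markers had a median of 306.8 RPKM over 6 genes, stroma markers 719.7 RPKM over 6, endothelial markers 19.8 RPKM over 5 and epithelial markers 49.5 RPKM over 5. The 4 mesothelial markers had a median of 3.09 RPKM, and none of the 4 fat markers reached 1 RPKM. In such bulk tissue, fewer cells of a type and less RNA per cell cannot be told apart.

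The mean of the uteri was 1 RPKM or more for all 10 elastic fibre genes, and for 60.0% of all genes in the table. At 10 RPKM or more there were 9 of them, against 32.2% of all genes, and at 100 RPKM or more there was 1, Fbn1, against 2.07%. The median over the members was 28.3 RPKM in uterus 1 and 26.6 RPKM in uterus 2, and over all genes averaging 1 RPKM or more it was 10.96 in either library. The members together held 0.0898% of the summed RPKM in uterus 1 and 0.0864% in uterus 2, resting on 7605 and 8042 reads. The highest member, Fbn1, and the lowest, Fbn2, bounded a wide range of levels.

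Elastin itself was among the low members. Eln (NM_007925, chromosome 5, 135178466 to 135223124, minus strand) encodes tropoelastin, the soluble precursor of the fibre core. Its level was 13.9 RPKM in uterus 1 and 8.95 RPKM in uterus 2, from 201 and 144 reads, a mean of 11.4 ± 3.48 (SD, n = 2). It lay above 68.4% of the 20445 genes with an NM_ identifier (protein-coding transcripts), and 8 members lay higher.

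The fibrillins form the microfibril backbone, and Fbn1 was the highest member by a wide margin. Fbn1 (NM_007993, chromosome 2, 125126330 to 125332174, minus strand), the main fibrillin of adult tissue, had 112.7 RPKM in uterus 1 and 109.9 RPKM in uterus 2, from 4277 and 4631 reads. Its mean was 111.3 ± 1.96 (SD, n = 2), above 98.1% of NM_ genes, and it made up 29.7% and 30.03% of the members' summed RPKM. Fbn2 (NM_010181, chromosome 18, 58168277 to 58369580, minus strand), the fibrillin best known from development, was the lowest member at 10.7 and 8.95 RPKM, from 430 and 399 reads. Fbn1 exceeded Fbn2 10.5-fold in uterus 1 and 12.3-fold in uterus 2, so both animals had the same order of the paralogues. The ratio of Eln to Fbn1 was 0.123 in uterus 1 and 0.0814 in uterus 2.

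The microfibril-associated members came next. Mfap5 (NM_015776, chromosome 6, 122463694 to 122479305, plus strand), also called MAGP-2, is a small glycoprotein bound to fibrillin. It had 52.9 RPKM in uterus 1 and 60.7 RPKM in uterus 2, from 286 and 364 reads. Mfap4 (NM_029568, chromosome 11, 61298946 to 61302206, plus strand), a fibrinogen-domain protein that binds tropoelastin and microfibrils, had 44.5 and 42.9 RPKM, from 258 and 276 reads. Emilin1 (NM_133918, chromosome 5, 31216159 to 31223646, plus strand), which sits at the interface of elastin and microfibrils, had 53.4 and 48.2 RPKM, from 709 and 710 reads. These 3 genes lay between 42.9 and 60.7 RPKM in every library, below Fbn1 and above all other members. Mfap5 exceeded Mfap4 1.19-fold in uterus 1 and 1.42-fold in uterus 2.

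Among the fibulins, Fbln1 and Fbln2 were at like levels and Fbln5 was lower. Fbln1 (NM_010180, chromosome 15, 85036438 to 85116724, plus strand), found in elastic fibres and basement membranes, had 25.9 RPKM in uterus 1 and 30.01 RPKM in uterus 2, from 334 and 429 reads. Fbln2 (NM_001081437, chromosome 6, 91162758 to 91222534, plus strand), a large fibulin that binds fibrillin and basement membrane proteins, had 30.7 and 23.2 RPKM, from 527 and 443 reads. Their order differed between the animals, with a ratio of Fbln1 to Fbln2 of 0.845 in uterus 1 and 1.29 in uterus 2. Fbln5 (NM_011812, chromosome 12, 102984775 to 103057329, minus strand), which binds tropoelastin and is needed to assemble elastic fibres in the mouse, had 12.6 and 13.99 RPKM, from 285 and 351 reads. Fbln1 was above Fbln5 2.06-fold and 2.14-fold.

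Lox (NM_010728, chromosome 18, 52676892 to 52689362, minus strand) encodes lysyl oxidase, the copper enzyme that starts the cross-linking of elastin and collagen. It had 21.6 RPKM in uterus 1 and 19.2 RPKM in uterus 2, from 298 and 295 reads, a mean of 20.4 ± 1.65 (SD, n = 2). Its relative Loxl1, which acts on elastin in particular, lay higher at 30.2 and 29.1 RPKM, so that the ratio of Lox to Loxl1 was 0.715 and 0.660.

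**Figure D1:**
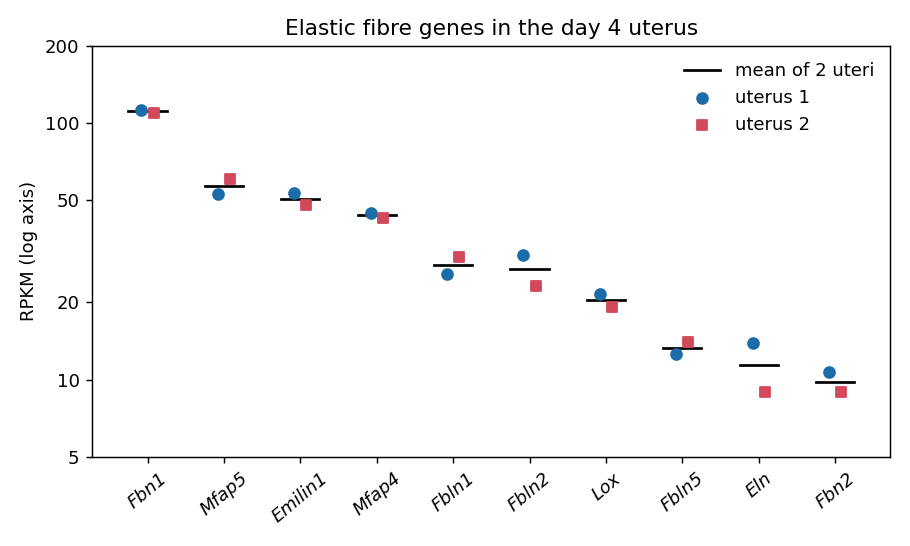
Level of each elastic fibre gene in RPKM on a log axis, ordered by mean, with uterus 1 as circles, uterus 2 as squares and the mean of 2 uteri as a bar. Fbn1 stands alone near 111.3 RPKM, and Fbln5, Eln and Fbn2 lie lowest.

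In the order of mean levels, 5 of the 9 neighbouring pairs were separated, meaning that both values of the higher gene lay above both values of the lower one. The separated steps were Fbn1 over Mfap5, Emilin1 over Mfap4, Mfap4 over Fbln1, Fbln2 over Lox and Lox over Fbln5. The other 4 pairs overlapped: Mfap5 with Emilin1, Fbln1 with Fbln2, Fbln5 with Eln, and Eln with Fbn2. The step from Fbn1 to Mfap5 was 1.96-fold in the means, the widest of the 9.

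Between the animals, 3 members were higher in uterus 2 and 7 were lower, and none differed 2-fold, where 2.60% of 13647 genes averaging 1 RPKM or more did. That share is 355 genes, and with 1 RPKM added in place of 0.1 it was 153 of the same 13647. Of the 7311 genes averaging 10 RPKM or more, as 9 of the members do, 0.657% were 2-fold apart. The median log2 ratio of uterus 2 over uterus 1, taken after adding 0.1 RPKM, was -0.10 over the members, and 0.0007 over the 13647 genes. Over the 9 members averaging 10 RPKM or more, without Fbn2, it was -0.0532. A two-sided exact binomial test of the recovered reads, with Benjamini-Hochberg adjustment over 15031 genes, called 2 of the 10 members, both lower in uterus 2. The same test called 4.49% of all genes, 2.40% as lower and 2.09% as higher in uterus 2. Well-covered genes were called more often: of 5306 genes with at least 345 reads, the sum of the least-read member, 9.76% were called. The test compares these 2 libraries, covers counting error only and has no replicate check.

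The 2 called genes were Eln and Fbln2. Eln was 35.5% lower in uterus 2, a ratio of 0.645 with a 95% counting interval from 0.517 to 0.803 (exact Clopper-Pearson), and an adjusted p of 0.0032 in the exact binomial test. Fbln2 was 24.3% lower, a ratio of 0.757 with an interval from 0.666 to 0.861 and an adjusted p of 0.0011 in the same exact test. Fbn2 had a ratio of 0.836 (0.728 to 0.960), yet its adjusted p of 0.143 in the exact binomial test missed the threshold of 0.05. Fbln1 had a ratio of 1.16 with an interval from 1.001 to 1.34, Mfap5 1.15 (0.979 to 1.34) and Fbln5 1.11 (0.946 to 1.30), and none of these 3 passed. Fbn1, with the most reads, was bounded most closely, at 0.975 (0.936 to 1.02). For Emilin1 the ratio was 0.902 (0.812 to 1.002), for Lox 0.892 (0.757 to 1.05) and for Mfap4 0.964 (0.810 to 1.15). At an unadjusted p under 0.05, the exact binomial test would have taken 4 members, Eln, Fbln2, Fbn2 and Fbln1, and it took 14.8% of all 15031 genes tested.

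**Figure D2:**
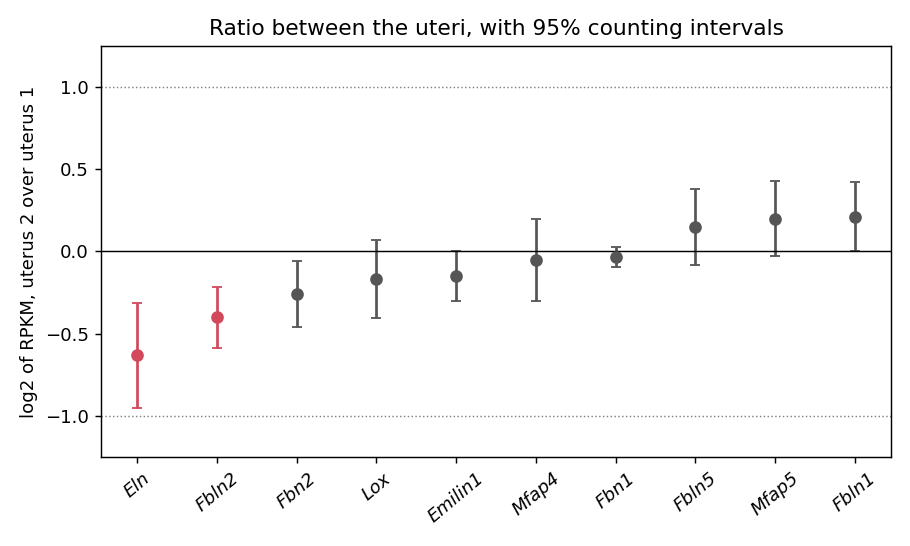
Log2 ratio of RPKM in uterus 2 over uterus 1 for each elastic fibre gene, with 95% counting intervals as bars and 2-fold differences as dotted lines. Eln and Fbln2, in red, passed the exact binomial test, and every point lies within the dotted lines.

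The cell-type markers went in both directions. Their calls are to be read against the 4.49% of all genes tested that were called, 2.40% as lower and 2.09% as higher, and the 9.76% of genes with at least 345 reads. Of the 6 stroma markers, 4 were higher and 2 lower in uterus 2, with a median log2 ratio of 0.05. Col1a1 was lower in uterus 2 (1184 and 851 RPKM) and Col1a2 too (988 and 857 RPKM), both called by the exact binomial test, whereas Dcn was called higher (456 and 578 RPKM) and Col3a1, Lum and Pdgfra, with higher values in uterus 2, were not called. Over all 6, the summed level was 4904 and 4613 RPKM. Of the 5 endothelial markers, Kdr (22.9 and 16.6 RPKM) and Vwf (13.1 and 9.57 RPKM) were called lower. The other 3, Pecam1 (50.7 and 50.9 RPKM), Cdh5 (44.4 and 45.98 RPKM) and Tek (16.8 and 17.5 RPKM), had higher values in uterus 2 and were not called. The endothelial median log2 ratio was 0.0045, and the summed level was 147.9 and 140.5 RPKM. The smooth muscle sum was 2025 and 2017 RPKM, with Acta2 called lower and Myh11 higher. The epithelial sum was 243.7 and 279.1 RPKM, with Krt18 called higher. Krt8 and Epcam were higher and Krt19 and Cdh1 lower in uterus 2, none of them called. The leukocyte sum was 61.6 and 68.9 RPKM, with 3 markers higher, 2 lower and none called after adjustment. At an unadjusted p under 0.05, the exact binomial test took 14.8% of all genes. Among markers it took 5 of 6 for stroma, 3 of 5 for epithelium and 2 of 6 for smooth muscle. It took 2 of 5 for endothelium, 2 of 5 for leukocytes and 0 of 4 for mesothelium. The part of these cell types in the Eln and Fbln2 values was not tested.

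Base composition also went with the ratio. A set of 6902 genes averaging 10 RPKM or more, with an annotated coding transcript, was split into 5 equal classes by G+C content. The median log2 ratio was 0.06 in the class with the lowest G+C and -0.05 in that with the highest. Across these genes Spearman's rho between G+C and the log2 ratio was -0.199, as a description of genes that share 2 libraries. Eln had the highest G+C of the members, 62.6%, above 98.9% of those genes, and Emilin1 with 61.0% and Fbln2 with 57.0% followed. The annotated Eln transcript holds coding sequence only, and the others include untranslated ends, so this rank and order compare unlike measures. By coding sequence alone the order was Eln with 62.6%, Emilin1 with 61.7%, Lox with 59.4% and Fbln2 with 58.3%. Over the 10 members rho was -0.44 with whole transcripts and -0.68 with coding sequence alone. Measured against the median of its own class, Eln had a log2 ratio of -0.58 in place of -0.63, and Fbln2 -0.35 in place of -0.40. That class spans 55.8% to 70.6% G+C with a median of 58.1%. The subtraction therefore does not measure the shift at the 62.6% of Eln. With whole transcripts, several members did not follow the trend. Fbln1 had 54.7% G+C and a log2 ratio of 0.21. Lox had the lowest whole-transcript G+C of the members, 42.6%, and a log2 ratio of -0.16, which became -0.23 against its class. The Lox coding sequence had 59.4%, and its recovered length equalled no annotated transcript, so its place depends on the sequence used. Fbn2 went from -0.26 to -0.27 against its class. This comparison was chosen after the data were seen, and the part of base composition in the Eln value was not tested.

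**Figure D3:**
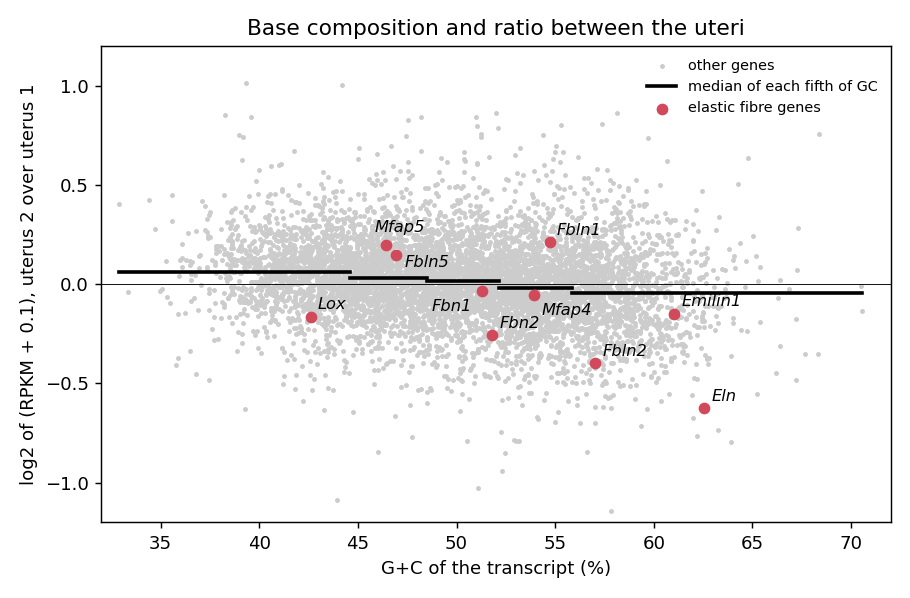
Log2 ratio of uterus 2 over uterus 1, after adding 0.1 RPKM, against the G+C content of the annotated transcript, for the elastic fibre genes (red) and other genes averaging 10 RPKM or more (grey; 8 lie beyond the axes). Black bars are medians of the 5 classes of G+C, which step down from 0.06 to -0.05. Eln, whose annotated transcript holds coding sequence only, lies at the lower right.

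The other genes of the pathway, taken from 10 lists of partners, had list medians from 4.26 to 23.4 RPKM, against 27.5 RPKM for the members. Members and lists were chosen with earlier results of these data known. The contrast depends on which genes counted as partners, among them Efemp1, Ltbp4, Efemp2 and Loxl1. Of 9 further microfibril genes, 7 averaged 1 RPKM or more, and the median of the 9 was 11.5 RPKM. Ltbp4, a latent TGF-beta binding protein that also promotes elastin assembly, had 116.7 RPKM in uterus 1 and 100.4 RPKM in uterus 2, close to Fbn1. Mfap2, or MAGP-1, the partner of Mfap5 on fibrillin, had 27.02 and 30.1 RPKM, and Mfap4 exceeded it 1.65-fold and 1.42-fold. Ltbp1, which tethers latent TGF-beta to microfibrils, had 28.1 and 22.8 RPKM and Ltbp3 24.6 and 19.8 RPKM. The exact binomial test called 3 of the 9, Ltbp1, Ltbp3 and Ltbp4, all lower in uterus 2, with adjusted p-values of 0.0014, 0.029 and 1.6e-05. For this and the lists that follow, the share called was 4.49% of all genes tested, 2.40% as lower and 2.09% as higher, and 9.76% of genes with at least 345 reads, which these 3 have. Ltbp2 was low, at 0.948 and 0.391 RPKM on 24 and 11 reads. Mfap1a and Mfap1b, which carry the microfibril name but are known as splicing proteins, lay at 9.10 ± 0.352 and 0.913 ± 0.118 RPKM (SD, n = 2), and this pair of near-identical genes may share reads.

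In the list of other fibulins and emilins, 2 fibulins stood high. Efemp1, or fibulin-3, had 123.1 RPKM in uterus 1 and 158.1 RPKM in uterus 2, above Fbn1 in either library. Efemp2, or fibulin-4, which brings lysyl oxidase to tropoelastin and is essential for elastic fibres, had 40.2 and 51.9 RPKM. Both were called higher in uterus 2 by the exact binomial test, with adjusted p-values of 3.7e-07 and 0.027, opposite to the direction called for Fbln2. No other of the 8 genes was called, and Emilin3 had too few reads to be tested. Fbln7 had 3.60 ± 0.275 RPKM, Emilin2 11.8 ± 1.54 RPKM (SD, n = 2), and Emilin3 0.147 and 0.199 RPKM on 2 and 3 reads.

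Of the 8 cross-linking genes, the exact binomial test called 0 after adjustment and 0 at an unadjusted p under 0.05, and 0 were 2-fold apart. The shares over all genes were low as well, at 4.49%, 14.8% and 2.60%, and counts of 0 among 8 genes are near these shares. Loxl2 lay at 27.2 ± 1.43 RPKM, near Loxl1 at 29.7 ± 0.721, while Loxl3 was at 10.6 ± 0.480 and Loxl4 at 1.38 ± 0.123 RPKM (SD, n = 2). Lox thus ranked below Loxl1 and Loxl2 and above Loxl3 and Loxl4 in both libraries. Atp7a, the pump that supplies copper to lysyl oxidases, lay at 13.9 ± 0.0298 RPKM. Bmp1, the protease that activates pro-lysyl oxidase, was at 31.7 ± 1.35 RPKM, its relative Tll1 at 1.93 ± 0.106 and its enhancer Pcolce at 64.5 ± 0.556 RPKM.

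All 4 genes of the list of an elastin chaperone and the elastin receptor averaged 1 RPKM or more. Fkbp10, a chaperone of tropoelastin and collagen in the endoplasmic reticulum, had 48.1 RPKM in uterus 1 and 36.3 RPKM in uterus 2, and was called lower in uterus 2 with an adjusted p of 0.0018 in the exact binomial test. The elastin receptor complex joins a splice form of Glb1 (12.7 ± 0.769 RPKM) with Neu1 (7.22 ± 0.0334) and Ctsa, which had 30.1 and 38.04 RPKM and was called higher with an adjusted p of 0.010 in that exact test. The values are per gene and cannot show which form of Glb1 was made. The ADAMTS-like partners of fibrillin had the lowest median level of the 10 lists, 4.26 RPKM over 8 genes. Adamts10 led them at 19.7 RPKM in either library, and Adamtsl1, at 12.2 and 9.32 RPKM, was the 1 gene called, with an adjusted p of 0.015 in the exact binomial test.

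Enzymes that can cleave elastin ranged from abundant to barely detected. Mmp2, or gelatinase A, had 163.9 and 163.95 RPKM, above every elastic fibre gene. Mmp14, which activates Mmp2, had 108.7 and 93.1 RPKM, the cysteine cathepsin Ctsl had 90.1 and 93.2 RPKM, and Ctsk had 33.6 and 31.9 RPKM. Ctss, a macrophage cathepsin, had 48.97 RPKM in uterus 1 and 70.6 RPKM in uterus 2. Of the 10 enzymes, Mmp7, Mmp12, Ctsg and Elane had too few reads to be tested. Among the others the exact binomial test called Mmp14 lower and Ctss higher in uterus 2, with adjusted p-values of 0.014 and 0.00033. Mmp9, or gelatinase B, was low, at 1.33 and 2.10 RPKM on 16 and 28 reads. The classic elastases were at the other end: Mmp12, or macrophage elastase, and Mmp7 each had 0 reads in uterus 1 and 1 in uterus 2, and Elane and Ctsg of neutrophils were listed at 0 in both. A listed 0 is not read as absence, since Rpl26, a ribosomal protein gene that cells in general use, is also listed at 0 in both libraries.

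Among 7 inhibitors, Cst3, the cystatin that blocks cathepsins, was highest at 165.5 ± 12.3 RPKM, followed by Timp2 at 87.3 ± 10.7, Timp3 at 48.6 ± 1.23 and Timp1 at 18.9 ± 0.215 RPKM (SD, n = 2). The exact binomial test called Timp2 lower and Slpi, an inhibitor of neutrophil elastase, higher in uterus 2. Slpi had 6.55 and 26.6 RPKM on 22 and 99 reads, 1 of the 3 genes in this list at least 2-fold apart, with Timp4 and Serpina1a on 4 to 15 reads each. Of all genes averaging 1 RPKM or more 2.60% were 2-fold apart, and 4.49% of all genes tested were called. Reads of Serpina1a may be shared with near-identical copies.

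The growth factors and receptors that meet at microfibrils ranged widely in level. The 3 TGF-beta ligands lay close together, Tgfb1 at 8.22 ± 0.523, Tgfb3 at 7.41 ± 0.960 and Tgfb2 at 7.06 ± 0.145 RPKM (SD, n = 2), each below Fbn2, the lowest member. Of 8 integrin subunits that recognise the RGD motif of fibrillins and Fbln5, Itgb1 was highest at 160.1 ± 3.69 RPKM, and Itgav (27.6 and 23.1 RPKM) was the 1 called, lower in uterus 2, with an adjusted p of 0.023 in the exact binomial test. Itgb5 lay at 28.2 ± 0.324 RPKM, Itga5 at 19.7 ± 2.57 and Itgb3 at 17.5 ± 0.598, while the epithelial subunit Itgb6 lay at 1.94 ± 0.438 RPKM. Of 5 regulators, Srf and its partner Myocd, which drive smooth muscle genes, lay at 29.8 ± 1.04 and 6.81 ± 0.0242 RPKM. Hif1a was called higher in uterus 2 (102.7 and 122.1 RPKM), and Klf4 and Mef2c were not called.

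**Figure D4:**
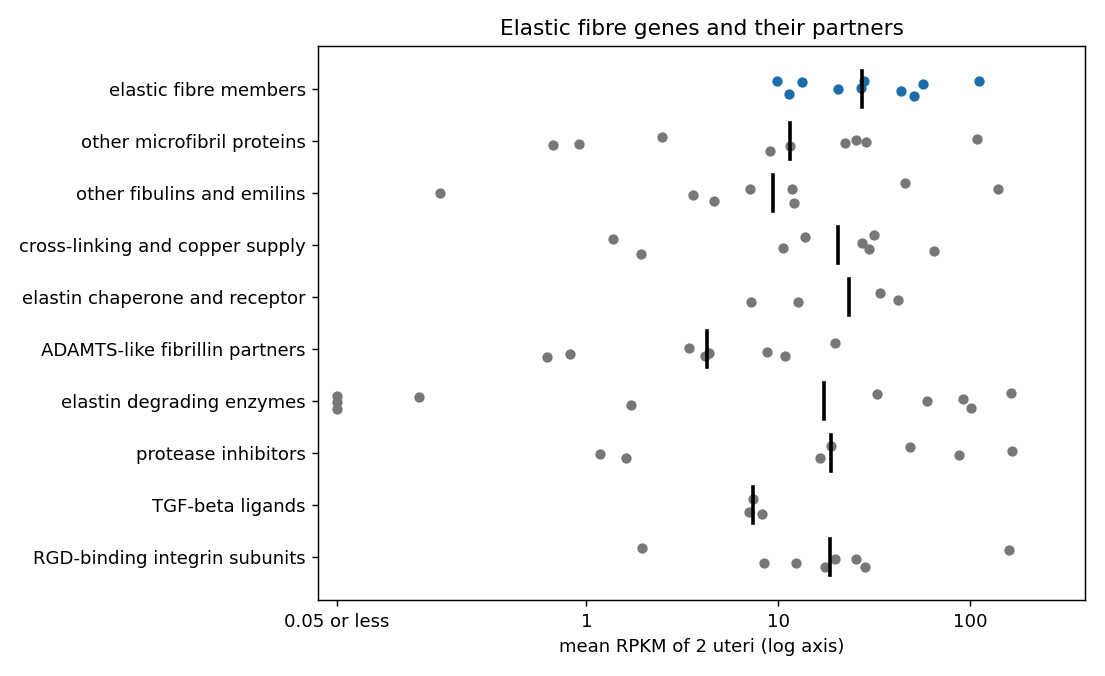
Mean RPKM of 2 uteri on a log axis for the elastic fibre genes (blue) and 9 of the 10 lists of partner genes (grey; the 5 regulators are not drawn), with each list's median as a bar and values up to 0.05 drawn at 0.05. The members lie between 9.82 and 111.3 RPKM, whereas several partner lists reach below 1 RPKM.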

How the data were processed

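The authors deposited RPKM values for 2 libraries, normalized per the series' design text; TRIzol extraction and the TruSeq RNA kit are stated per the labels' protocols. TopHat, edgeR and build mm9 are named in the submitters' processing notes, with no role or version, and use of strand is not given in the sources used here. The main table holds 22740 genes. The annotated table holds the same values with coordinates, counted from 0 at the start and given here from 1 on NCBIM37 (mm9). No member overlaps another of its rows.

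Reads were recovered with Python 3.11.15 and scipy 1.17.1. Single-exon genes gave scaling totals of 3834174 and 4256101, and all 209 and 217 such genes above 0 came out whole within 1e-06 of a read, including the 35 and 34 single-read genes that set the totals. For other genes, the smallest whole reads and whole length that gave both RPKM values were found, then multiplied where a multiple equalled an annotated transcript length, trimmed to the table's ends by at most 2000 bases, or lay within 0.05 of one in natural log. This worked for 17333 of 17426 genes above 0. For 9 of the 10 members the length equalled an annotated one, and for Lox the smallest reads were kept.

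Ratios of linear values and their intervals have no pseudocount. Log2 ratios of uterus 2 over uterus 1 in the text, and the 2-fold counts, were taken after adding 0.1 RPKM, which understates changes of low genes. The two-sided exact binomial test took genes with at least 6 reads in sum, at an adjusted p under 0.05 (Benjamini-Hochberg). On simulated data it called 182 of 200 genes changed 2-fold, and 3 unchanged genes. That run is no check on differences between animals, since the test covers counting error only. Intervals cover counting error only. Named genes are the members, fixed partner lists and cell-type markers. Members and lists were chosen with earlier results of these data known.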

Additional observations from a re-analysis of the deposited data

How the results depend on the processing

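The 2 calls among members, Eln and Fbln2, were also 2 with the smallest whole reads and when adjusted over genes with at least 345 reads, the latter chosen after seeing the data. With the smallest reads the adjusted p in the exact binomial test was 0.0037 for Eln and 0.0012 for Fbln2, against 0.0032 and 0.0011. The cut of 345 is the read sum of Eln itself, so it keeps Eln by construction. Neither setting is a strong check of these calls. Over all genes, the smallest reads gave 562 calls in place of 675. No member was 2-fold apart with a pseudocount of 0.01 or 1, after centring or on the TPM scale. The members' median log2 ratio was -0.0532 at a mean of at least 10 RPKM, a filter that leaves out Fbn2, against -0.101. A threshold of 50 RPKM gave 3 members in place of 1, and NM_ rows alone raised the members' share of summed RPKM to 0.104%, both by construction. Of all genes, 1846 were 2-fold apart with no filter, 48 at a mean of at least 10 RPKM and 153 with a pseudocount of 1, against 355. The cause of these shifts was not tested. Leaving out either library moved each level and within-library ratio by less than 1 SD, which holds for any mean of 2 values and says nothing about stability. No paired analysis was possible because the labels give a single group. Eln rests on 345 reads in sum, which limits its ratio to the interval given.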
